A study of Drosophila melanogaster with 3 samples.

Results

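The genes described here encode the proteins of the mitochondrial ribosome of Drosophila melanogaster, and the question is how many of their promoters carried a peak of pb-GFP. They were chosen by symbol alone (mRpL or mRpS followed by a digit) among the protein-coding genes of the annotation, which gave 73 of the 13945 protein-coding genes on the 6 chromosome arms, 47 of the large subunit and 26 of the small one. Peaks come from chromatin immunoprecipitation followed by sequencing (ChIP-seq) of whole embryos, collected at 0 to 24 h, of mixed sex, from a transgenic line that stably expresses the Hox protein proboscipedia (pb) fused at the C terminus to GFP. The description names an antibody against GFP, whereas the antibody field of the labels names pb, and the former was followed here. The immunoprecipitation started from chromatin that had been sonicated to fragments of 200 to 800 bp. The 3 libraries are biological replicates of this single group, so no conditions were compared and no test was run. Whole embryos of all stages were pooled, so a peak cannot be assigned to a cell type. No library without the tagged protein was analysed here, so recovery that needs pb-GFP and recovery that does not cannot be told apart.

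Mitochondrial ribosomes translate the few proteins encoded by mitochondrial DNA, which are subunits of the respiratory chain and of ATP synthase. All of their protein components are encoded in the nucleus, made in the cytoplasm and imported, while their RNAs come from the mitochondrial genome. Many of the proteins descend from bacterial ribosomal proteins and carry the same number, and others occur in mitochondria and not in bacteria. The genes are expressed widely, as every cell with mitochondria needs them, whereas pb is known for specifying the adult mouthparts.

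The sequences below are the promoters of the 6 of these genes with the strongest peaks outside a chromosome arm not shown here. They are shown because each peak lies between or beside a pair of start sites that face away from each other, and because 3 of these promoters hold the E-box that recurs in the family. Each is the reference sequence of dm6 (RefSeq, Release 6), written 5′ to 3′ in the direction of the ribosomal protein gene, and runs from up to 120 bases before the start site into the first 30 bases transcribed. It is shorter where another transcript overlaps. The start site is the one nearest to the summit. For mRpL23 this is 1 of 3, and a start farther upstream lies within the window, so that part of it is transcribed from the gene itself. For mRpS10, mRpS23 and mRpS2 the summit lies upstream of that window, and up to 60 bases to either side of the summit were added after the data were seen. Capitals mark any of the 11 motifs searched for, on either strand.
mRpS10, 150 bases around the start site, chr3R:15229545-15229694, plus strand: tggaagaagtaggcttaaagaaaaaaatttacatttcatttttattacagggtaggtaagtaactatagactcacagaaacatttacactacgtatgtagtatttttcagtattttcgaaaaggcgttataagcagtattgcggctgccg
mRpS10, 121 bases around the summit, chr3R:15229460-15229580, plus strand: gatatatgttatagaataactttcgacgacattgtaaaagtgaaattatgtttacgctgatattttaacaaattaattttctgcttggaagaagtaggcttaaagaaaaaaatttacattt
mRpS23, 150 bases around the start site, chr2L:13835043-13835192, minus strand: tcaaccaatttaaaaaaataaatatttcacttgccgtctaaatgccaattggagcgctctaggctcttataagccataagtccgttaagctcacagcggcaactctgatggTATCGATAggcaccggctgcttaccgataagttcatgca
mRpS23, 121 bases around the summit, chr2L:13835378-13835498, minus strand: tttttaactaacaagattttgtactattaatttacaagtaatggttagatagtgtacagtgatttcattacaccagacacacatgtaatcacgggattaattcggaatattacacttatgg
mRpL23, 89 bases around the start site, chr3L:2373649-2373737, minus strand: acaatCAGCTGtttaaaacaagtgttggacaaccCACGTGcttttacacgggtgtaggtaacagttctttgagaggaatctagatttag
mRpS2, 150 bases around the start site, chr2L:4850390-4850539, minus strand: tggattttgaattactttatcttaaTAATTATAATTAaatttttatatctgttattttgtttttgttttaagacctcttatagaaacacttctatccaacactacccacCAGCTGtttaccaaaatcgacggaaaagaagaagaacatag
mRpS2, 97 bases around the summit, chr2L:4850574-4850670, minus strand: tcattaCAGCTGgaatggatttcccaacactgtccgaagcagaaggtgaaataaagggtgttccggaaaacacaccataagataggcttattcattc
mRpL4, 150 bases around the start site, chr2L:16329103-16329252, minus strand: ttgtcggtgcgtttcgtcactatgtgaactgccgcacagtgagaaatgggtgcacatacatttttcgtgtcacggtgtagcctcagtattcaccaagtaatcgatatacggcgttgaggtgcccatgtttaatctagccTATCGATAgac
mRpL35, 150 bases around the start site, chr3R:22023407-22023556, plus strand: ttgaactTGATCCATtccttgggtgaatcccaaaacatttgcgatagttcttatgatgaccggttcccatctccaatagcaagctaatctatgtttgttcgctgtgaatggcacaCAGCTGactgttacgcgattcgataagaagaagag

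Capitals mark the DRE, TATCGATA, at the start sites of mRpS23 and mRpL4, and the E-box CAGCTG at those of mRpL23, mRpS2 and mRpL35. The homeodomain core TAATTA is also marked at mRpS2, and the Hox-Exd core TGATNNAT at mRpL35. The CACGTG E-box stands in the mRpL23 promoter. The summit window of mRpS2 holds another CAGCTG. In neither window of mRpS10, and not in the summit window of mRpS23, was any of the 11 motifs found, which says only that these letters do not occur in these windows.

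A thresholded peak lay at 16 of the 73 mitochondrial ribosomal protein genes, or 21.9%, against 15.3% of all protein-coding genes. The authors thresholded their combined list of peaks on the irreproducible discovery rate (IDR), which left 2740 peaks. A gene was counted when a summit lay within 1000 bp of one of its start sites. The combined list was called on all 3 libraries together, so this count has no replicate error of its own. Each library's own list gave it instead, cut at its 2740 strongest peaks by the authors' signal value. Replicate 1 had a summit at 17 of the genes (23.3%, against 15.1% of all genes). Replicate 2 had one at 18 (24.7%, against 14.6%) and replicate 3 at 13 (17.8%, against 15.2%). The mean was 21.9% ± 3.62 (SD, n = 3). The share stood above the background in each library, by least in replicate 3. Leaving out replicate 1 kept the thresholded peaks that were also among the strongest of replicates 2 and 3, matched within 100 bp in both. In this subset the share was 9.59% against 9.65% of all genes. There the family did not exceed the background, although it did in the own lists of replicates 2 and 3. The subset still consists of peaks called on all 3 libraries together. In the same way, the share without replicate 2 was 11.0% against 9.06%, and without replicate 3 it was 19.2% against 9.88%.

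Peaks occurred at genes of both subunits. Of the large subunit genes 10 of 47 had a peak (21.3%), and of the small subunit genes 6 of 26 (23.1%). The median rank of their peaks in the combined list, where 1 is the strongest, was 1211 for the large and 1630 for the small subunit. Over all 16 genes it was 1280.5, beside 1274 over the 2138 protein-coding genes with a peak. The family was spread over 5 arms, with peaks at 3 of 12 genes on 2L, 5 of 12 on 2R, 3 of 17 on 3L and 5 of 21 on 3R. Of all genes on these arms 14.3, 16.1, 15.2 and 16.3% had a peak. None of the 11 family members on X had one, where 14.6% of all genes did.

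The strongest peaks of the family were among the strongest of the whole data set. Of the 16 peaks 3 ranked among the first 20 of the combined list, which is 18.8%, against 0.935% of the protein-coding genes with a peak. These 3 peaks stood at mRpS10, mRpL41 and mRpS23. That of mRpL23 was also within the first 200, and the family had none from there to rank 500. The gap to other genes narrowed with depth, as 25% of the family's peaks against 9.07% ranked within 200, 25% against 20.9% within 500 and 62.5% against 53.8% within 1370. The limit of 20 lies just past the peak of mRpS23.

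mRpS10, a small subunit gene named after a bacterial ribosomal protein, had the peak at 3R 15229353 to 15229710 (dm6, as are all coordinates here), with its summit at 15229520. Replicates 1 to 3 placed it at ranks 12, 12 and 6, with a mean of 10 ± 3.46 (SD, n = 3). The summit lay 145 bp upstream of the start of mRpS10 and 112 bp upstream of the start of Art3, an arginine methyltransferase gene that reads the other way. The libraries placed it within 19 bp of each other.

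mRpL41, which encodes a large subunit protein, had the peak at 2R 15217581 to 15217927, with its summit 130 bp upstream of the start. It ranked 9, 11 and 9 in replicates 1 to 3, a mean of 9.7 ± 1.15 (SD, n = 3). The head-to-head gene is CG8079, whose start lay 632 bp from the summit. At this promoter the ribosomal protein gene was thus the nearer of both.

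mRpS23, a small subunit gene, had the peak at 2L 13835300 to 13835627, with ranks of 16, 19 and 24 in replicates 1 to 3 and a mean of 19.7 ± 4.04 (SD, n = 3). Its summit was the most distant of the family, 366 bp upstream of mRpS23 and 126 bp upstream of CenG1A, which encodes a GTPase-activating protein for Arf. The libraries placed this summit within 4 bp of each other. In all 3 libraries the peaks of mRpS10, mRpL41 and mRpS23 carried the largest −log10 q of the list. That value is a ceiling shared by 1199 to 2523 peaks of a replicate list. It was reached in all libraries by 6 of the family's 16 peaks.

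mRpL23, named after the bacterial protein at the exit of the ribosomal tunnel, came next at 3L 2373453 to 2373762. It ranked 261, 91 and 168 in replicates 1 to 3, a mean of 173.3 ± 85.1 (SD, n = 3). It had the family's only summit inside the transcribed side, 36 bp downstream of the nearest start of mRpL23 and 86 bp upstream of CG9004. The summit of replicate 1 lay 75 bp from that of the combined list, and those of replicates 2 and 3 within 4 bp of it.

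The next peaks were weaker, and their ranks spread further between libraries. mRpL53 ranked 291, 533 and 1380 in replicates 1 to 3, with the summit 48 bp upstream of its start. CG33155 is annotated with the same start, and AGO1, the Argonaute gene of the microRNA pathway, starts 170 bp away on the other strand. mRpL34 ranked 623, 847 and 1059, with the summit between its start and that of Dg, the dystroglycan gene. mRpL4 ranked 1509, 984 and 2027, with the summit 102 bp from its own start and 691 bp from that of CG4440. These 3 and the 4 before them were the peaks that stood among the 2740 strongest of every library when matched within 100 bp, 7 of 16 (43.8%), beside 46.7% of all thresholded peaks.

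Of the next 5 peaks, all but that of mRpL11 were weakest in replicate 3. mRpL18, head to head with the tafazzin gene Taz, ranked 868, 1212 and 3490. mRpS2 ranked 814, 1154 and 4740, with its summit 7 bp from the start of Mon1. mRpL35, beside Mitofilin, a gene for the organisation of mitochondrial cristae, ranked 1184, 2680 and 5531. The strongest summits within 1000 bp of the mRpL35 start, however, ranked 1184, 1425 and 1763, among the strongest of every library. mRpL11, beside the mitochondrial protease gene HtrA2, ranked 1027, 7550 and 894, and so was weakest in replicate 2, where another summit within 1000 bp of the start ranked 2876. mRpL47 ranked 899, 2488 and 8540, with its summit 16 bp from the starts annotated for both CG8176 and the histone demethylase gene Kdm3. Within 100 bp of the combined summits, replicate 1 had 15 of the family's 16 peaks among its strongest, replicate 2 had 14 and replicate 3 had 8. In percent these are 93.8, 87.5 and 50, against 70.9, 80.3 and 71.3 over all thresholded peaks. Counting any of a library's strongest summits within 1000 bp of the start instead, the same promoters numbered 15, 14 and 11, or 93.8, 87.5 and 68.8%. Over all genes with a peak these shares were 79.6, 83.5 and 79.1%. The gap in replicate 3 was smaller by this count, which differs in distance, in reference point and in the set compared with. Differences in depth or recovery between libraries are unknown, and their part in the gap was not tested.

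The 4 weakest peaks belonged to mRpS16 (combined rank 2005), mRpL21 (2066), mRpS31 (2403) and mRpS11 (2678), named after their values were seen. mRpS16, beside the zinc finger gene cg, ranked 1124 and 2661 in replicates 1 and 2 and had no match within 100 bp in replicate 3, which listed a summit of rank 2191 within 1000 bp of the start. mRpL21, beside the reptin gene rept, ranked 1739, 1939 and 3722. mRpS31 was not matched in replicate 1, whose closest listed summit lay 2130 bp from the start. It ranked 3379 and 28435 in replicates 2 and 3. Farther from that summit, but still within 1000 bp of the start, replicate 3 had one of rank 2345. mRpS11, beside the nucleostemin gene Ns1, ranked 1614, 2717 and 13003 and was the last of the family inside the threshold.

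**Figure D1:**
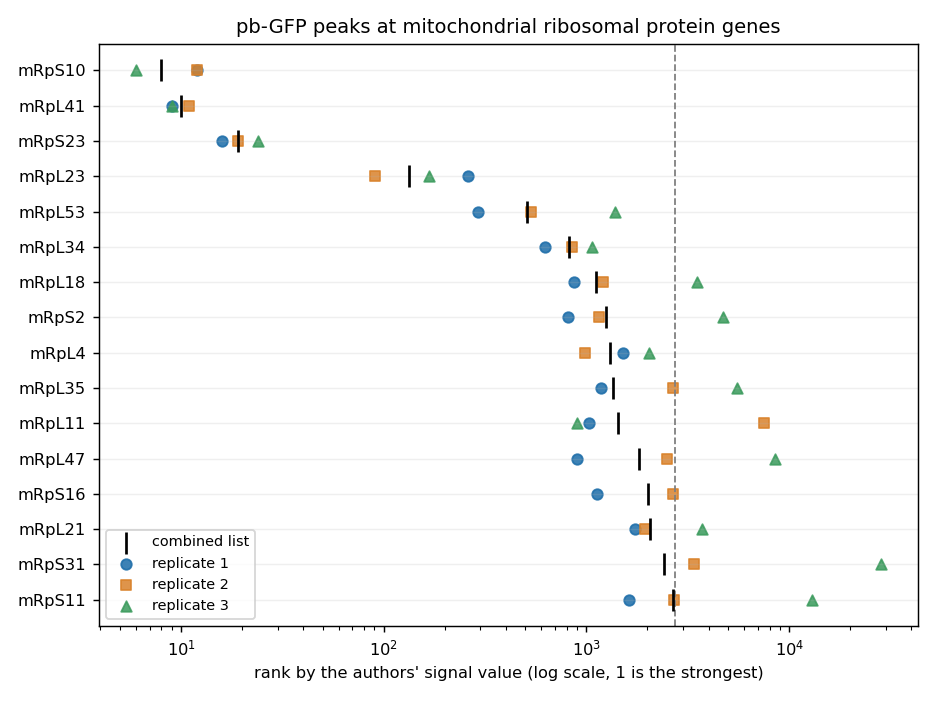
Rank of each of the 16 peaks by the authors' signal value (log axis, 1 is the strongest) in the combined list (black bars) and, matched within 100 bp, in replicates 1 to 3 (symbols), with the dashed line at rank 2740. The 3 strongest keep ranks of 6 to 24 in every library, while 8 of the others lie to the right of the line in at least 1 library, most of them in replicate 3, and mRpS16 and mRpS31 each lack a symbol for an unmatched library.

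Every one of the 16 peaks lay at a promoter that the ribosomal protein gene shares with a gene reading the other way. A start of another protein-coding gene lay within 1000 bp of each of the 16 summits, as it did for 1223 of the 2138 protein-coding genes with a peak (57.2%) and for 45 of 64 cytoplasmic ribosomal protein genes (70.3%). The starts of the pair were 20 to 793 bp apart, with a median of 207 bp. The summit lay between them at 13 of the 16 promoters, the exceptions being mRpL23, mRpL18 and mRpL11. This was not counted over other pairs. At 15 of the 16 (93.8%) the summit was upstream of the ribosomal protein gene, against 77.9% of all genes with a peak. A summit between the starts of such a pair is upstream of both genes by definition. Of the 2138 genes with a peak, 1243 had a start upstream on the other strand within 1000 bp, so the shares compare unlike arrangements. The median distance to its start was 119 bp, beside 157.5 bp over all genes with a peak and 21 bp over the cytoplasmic ribosomal protein genes.

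Either gene of the pair could be the nearer one, a split that was not counted over other shared promoters. The other gene's start was closer to the summit at 9 of the 16 promoters and the ribosomal protein gene's at 7, mRpL53 sharing its own with CG33155. Only 8 of the 73 genes (11.0%) were therefore the nearest protein-coding gene to a thresholded summit, against 15% of all genes, and for mRpL40 that summit lay 14015 bp away. With 1 start site taken per gene the count was 11 (15.1%, against 15.6%), so that the lower share depends on which start sites are used.

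**Figure D2:**
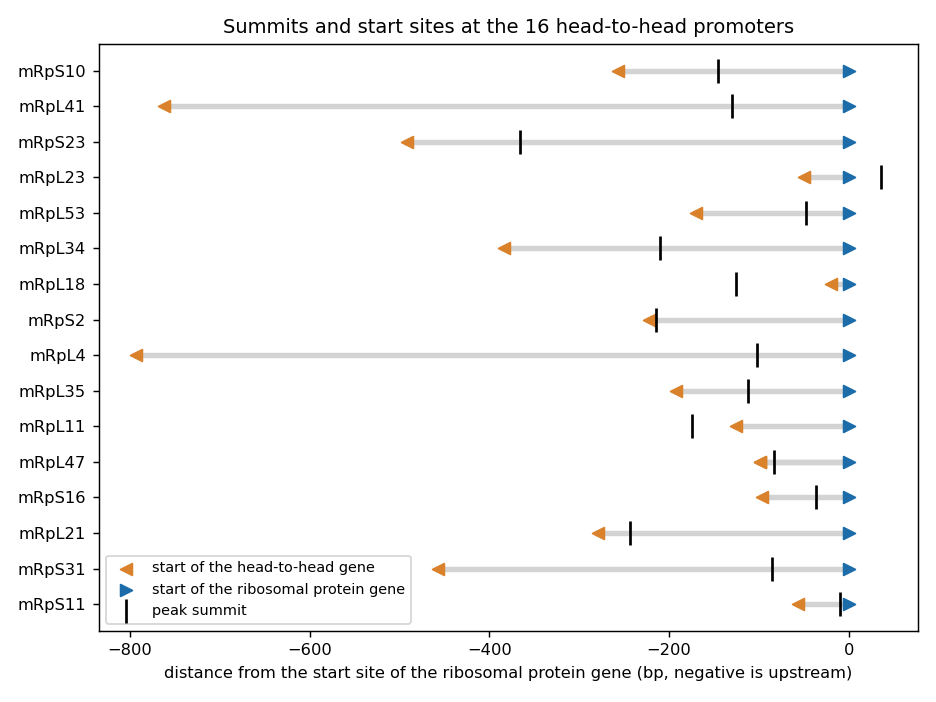
Summits (black bars) at the 16 promoters in order of rank, with the start of the ribosomal protein gene at 0 (blue, reading right) and the start of the gene head to head with it (orange, reading left), in bp. Bars lie between the starts at 13 promoters and outside them at mRpL23, mRpL18 and mRpL11.

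Shared promoters were common in the family as a whole, whether or not they carried a peak. Another protein-coding gene started within 1000 bp of 60 of the 73 genes (82.2%), against 42.9% of all protein-coding genes, and 58 (79.5%) had such a gene upstream on the other strand, against 36.2%. Genes with a neighbouring start had peaks more often in general, at 22.6% of 5985 genes, against 9.84% of the 7960 with none. Among the ribosomal protein genes the shares were 16 of 60 (26.7%) and 0 of 13. Set beside genes with a neighbouring start on either strand, the family's share with a peak was thus 26.7% against 22.6%. This is a smaller gap than 21.9% against 15.3%. With a start upstream on the other strand, 16 of 58 family genes had a peak (27.6%), against 1243 of 5052 genes (24.6%). Cytoplasmic ribosomal protein genes had peaks at 46 of 54 shared promoters (85.2%) and at 18 of 31 single ones (58.1%).

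**Figure D3:**
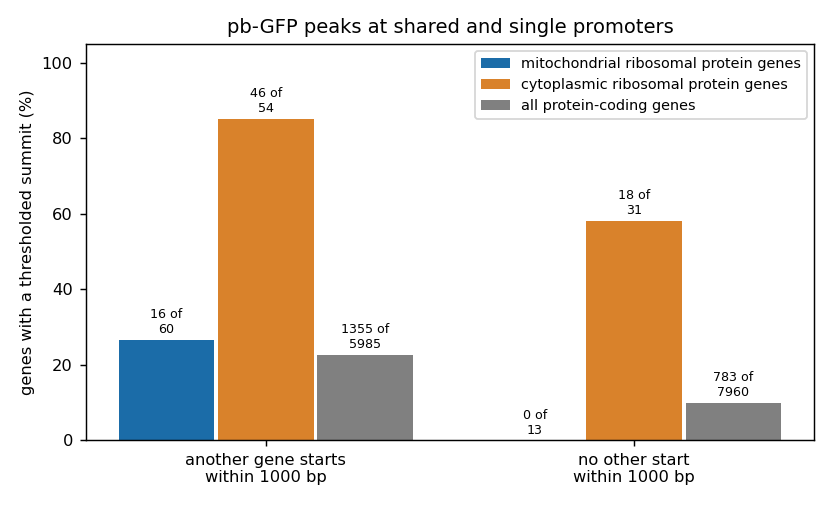
Share of genes with a thresholded summit within 1000 bp of a start (bars, in percent, with counts above them), for genes with and without another protein-coding start within 1000 bp. Mitochondrial ribosomal protein genes stand at 26.7% and 0, all protein-coding genes at 22.6% and 9.84%, and cytoplasmic ribosomal protein genes at 85.2% and 58.1%.

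Most of the 57 genes without a thresholded peak still had a weaker region listed at the promoter. The combined list holds 30000 peaks and background regions, and 67 of the 73 genes (91.8%) had one of their summits within 1000 bp, against 62.7% of all genes. Among genes with a neighbouring start the shares were 96.7% and 75.3%. The family held 30.1% of its members at ranks 5001 to 10000, where 13.6% of all genes fell, and 8.22% had no summit listed, against 37.3%. The median rank of the strongest summit, over genes with one, was 7290 for the family and 7276 for all genes. Among genes with a neighbouring start it was 7062.5 for the family and 5673 for all genes, so the family's were weaker there. Among genes with no other start it was 9387 and 9515. Such weak regions include background by the authors' own description.

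**Figure D4:**
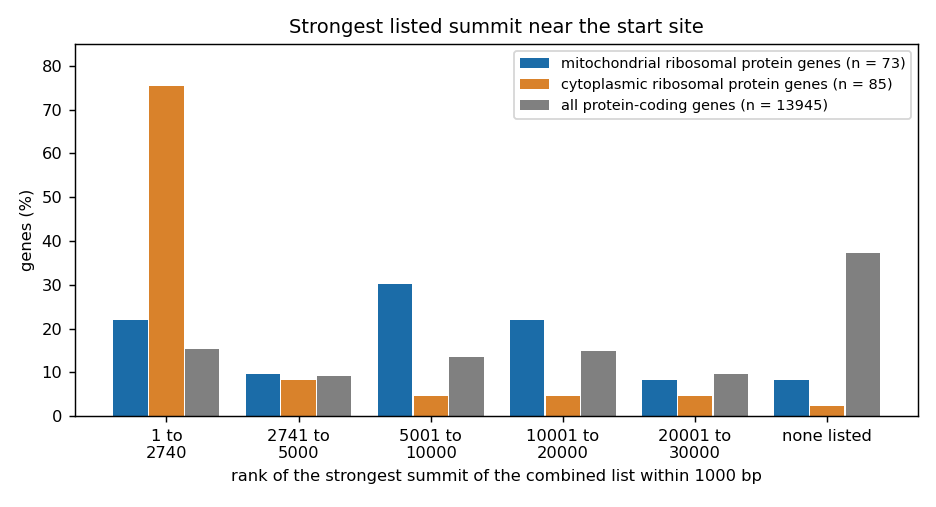
Share of genes (bars, in percent) by the rank of the strongest combined-list summit within 1000 bp of a start, for mitochondrial ribosomal protein, cytoplasmic ribosomal protein and all protein-coding genes. The mitochondrial family has 21.9% in the thresholded class and its largest class at ranks 5001 to 10000 (30.1%), whereas the cytoplasmic one has 75.3% in the thresholded class.

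The genes closest to the threshold differed between libraries. mRpS7, head to head with the cell cycle kinase gene Cdk1, was just outside at rank 2788 of the combined list. Its strongest summit within 1000 bp ranked 16493, 1900 and 1876 in replicates 1 to 3, so that both other libraries placed it among their strongest peaks and replicate 1 did not. mRpL33 (combined rank 2843) ranked 16767, 1699 and 3010. mRpS6 (3191) ranked 3823, 2368 and 13945, and mRpL17 (3434) ranked 11294, 3285 and 2251. mRpL24 (3543) ranked 10714, 3608 and 3715, among the strongest of no library. mRpS26 (3559) ranked 2560, 3602 and 8495. For 5 of these 6 genes, all but mRpL24, at least 1 library had the promoter among its 2740 strongest peaks. The 6 were chosen for ranking next below the threshold. The same share over all genes at such ranks was not counted, so it is not read as a trait of the family.

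Across the family 9 genes (12.3%) had a summit among the strongest peaks of all 3 libraries, against 9% of all genes. A further 7 had one in 2 libraries (9.59%, against 4.83%), 7 in 1 library (9.59%, against 8.31%) and 50 in none (68.5%, against 77.9%). No combined-list summit lay within 1000 bp of mRpS34, mRpS18A, mRpL9, mRpL14, mRpL30 and mRpL49. Of these mRpS34, mRpS18A and mRpL49 had none in any library's list either. None of the 73 genes had more than 1 thresholded summit. The 57 genes without one lay 1244 bp or more from the closest, with a median of 11753 bp. The farthest was mRpS5 at 1658340 bp, a gene named after its value was seen.

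The E-box CAGCTG was common at the start sites of the family, with and without a peak. Each promoter was read from 250 bases before to 50 bases after the start, on both strands, and 40 of the 73 promoters (54.8%) held the box, against 17.7% of all protein-coding genes and 21.1% of those with a neighbouring start. Genes with a peak held it in 9 of 16 promoters (56.2%) and those without in 31 of 57 (54.4%), so the share hardly differed with the peak. The large subunit had it at 57.4% and the small subunit at 50%. The box nearest to the start lay close to it. The median position of its centre was 7 bp downstream, and the quartiles were −14.75 and 19 bp, with negative values upstream. At the 9 genes with a peak and a box, the box nearest to the summit was 27 to 223 bp from it. The median was 104 bp. For mRpS2, which held 2 boxes, this was not the box nearest to the start. In the list of tRNA synthetases of mitochondria 46.7% of promoters held the box, and 40.0% in the list of other mitochondrial gene expression factors. It was found at 24.1% of respiratory chain and ATP synthase genes and at 8.24% of cytoplasmic ribosomal protein genes.

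**Figure D5:**
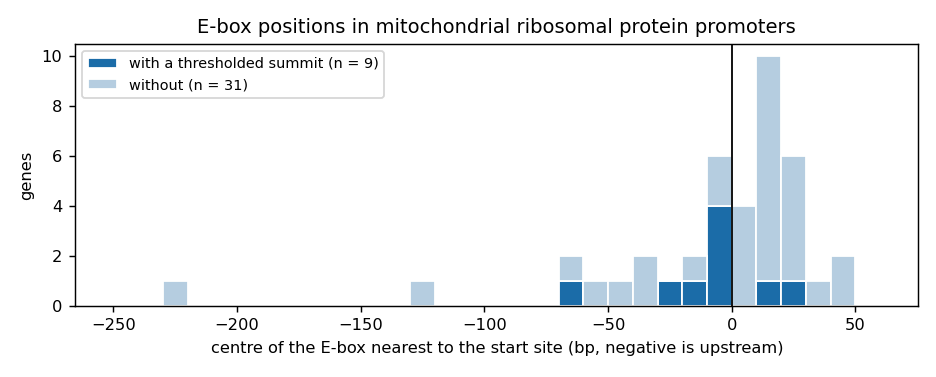
Position of the centre of the E-box nearest to the start site, in bp, for the 40 mitochondrial ribosomal protein genes with one between 250 bases upstream and 50 downstream, as stacked counts of genes with and without a thresholded summit. Most boxes lie near 0 (median 7 bp) in both classes.

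Motifs were also counted within 100 bp of each of the 16 summits, a narrower window than that of the promoters. CAGCTG occurred at 4 summits (mRpL23, mRpL53, mRpL18 and mRpS2), or 25%, against 11.0% of all thresholded summits. CACGTG occurred at 2, those of mRpL23 and mRpS11, against 2.63%. The Pho core GCCATNTT occurred at 2, those of mRpL41 and mRpS16, against 4.27%, and motif 1 of fly core promoters, GGTCACACT, at mRpS16, against 1.86%. The Hox-Exd core TGATNNAT occurred at 3 (mRpS23, mRpS2 and mRpL35), or 18.8%, against 10.9%. The homeodomain core TAATTA occurred at none of the 16, against 12.3%. The DRE TATCGATA, GAGAGAG and the Zelda motif CAGGTAG occurred at none, against 4.42%, 7.15% and 0.985%. Nor did the NRF-1/ewg core GCGCANGCG or the ETS core CCGGAAGT, which stood at 0.511% and 0.584% of all thresholded summits. The DRE stood in 15 of the 73 promoters (20.5%), against 9.36% of all promoters, and in 2 of the 16 with a peak. TAATTA likewise stood in 15 of the 73 promoters (20.5%), against 20.4% of all promoters, and in 1 of the 16 with a peak. All motifs were searched on both strands, and TAATTA and TGATNNAT can overlap in part, in which case each was counted.

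Other nuclear genes for the mitochondrial genetic system and the respiratory chain had peaks at shares of 13.3% to 23.3%, on both sides of the background of 15.3%. Of 30 mitochondrial gene expression factors 7 had a peak (23.3%). They include PNPase, which encodes a mitochondrial RNA-degrading enzyme, with ranks of 13, 5 and 7 in replicates 1 to 3, the RNA-binding protein gene SLIRP2 (59, 81 and 68) and the protease gene Lon (243, 230 and 222). All 3 summits lay upstream and also within 1000 bp of another start (Gprk2, Mkk4 and PIG-F). Of 15 mitochondrial tRNA synthetase genes 2 had a peak, LeuRS-m (1047, 819 and 1664) and ArgRS-m (2397, 8279 and 1290). Of 87 respiratory chain and ATP synthase genes 13 had one (14.9%), the strongest at the complex I genes ND-MWFE (432, 489 and 893) and ND-ASHI (486, 729 and 391) and at COX7AL2 (670, 801 and 416).

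The cytoplasmic counterparts differed far more from the background. Of 85 cytoplasmic ribosomal protein genes 64 had a peak (75.3%), with a median rank of 646.5 against the 1280.5 of the mitochondrial genes. The libraries gave 66, 59 and 62 of them. RpS27, RpL41 and RpL23A had the strongest, at combined ranks 42, 79 and 86, all weaker there than the peaks of mRpS10, mRpL41 and mRpS23. In replicate 1, however, RpS27 at rank 15 stood before mRpS23 at rank 16. Translation initiation factor genes had 12 of 44 (27.3%), led by eIF2Bbeta (rank 1, with a summit 680 bp upstream that is also within 1000 bp of the start of Ugalt), eIF6 (102) and eIF1 (340).

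Genes for mitochondrial ribosomal proteins whose symbols do not follow this pattern were not searched for, apart from tko and bonsai. The symbol Dap3 was also looked up and matched no gene. This does not show that a gene is missing, as it may be counted in the family under another symbol. tko, the gene of the protein named after bacterial S12, had no thresholded peak. Its strongest summit within 1000 bp stood at rank 3014 of the combined list and at 4858, 4018 and 2309 in replicates 1 to 3. bonsai, the gene of the counterpart of bacterial S15, had a summit of rank 25395 in the combined list, one of rank 3389 in replicate 1 and none in replicates 2 and 3.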

How the data were processed

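Peaks were read from the authors' deposited dm6 lists in narrowPeak format, in which the summit is the start plus the offset in the last column. Peak calling for a replicate used that library's alignments and a control, and for the combined list the alignments of all libraries, per the deposited notes. Each holds 30000 peaks and background regions, and the thresholded list equals the 2740 strongest of the combined one. The deposited signal value per peak was used for ranks only, since its statistic is not given in the sources used here, nor are the aligner and the peak caller. The deposited −log10 q value has a ceiling shared by 1199 to 2523 peaks of a replicate list. Read depth is unknown, so no counting interval is given. The dm3 lists were not used.

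Start sites were those of every transcript of protein-coding genes in Ensembl release 115 (FlyBase 6.54). Gene lists were defined by symbol, and no annotated gene carried the symbol Dap3. Summits were matched between lists within 100 bp. Members, lists and motifs were chosen with earlier results of these data known, so values are described beside all genes with no test. Genes were named by rule: the 12 strongest peaks and the genes that share them, the 6 genes next below the threshold, those with no listed summit, those with more than 1 summit, the 3 strongest of each other list, and tko and bonsai. The assignment was tested on simulated data. Alternatives were other windows, list depths, start sites and motif windows, a stricter threshold and leaving out each replicate. Python 3.11.15, pandas 2.3.3 and numpy 2.4.6 were used.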

Additional observations from a re-analysis of the deposited data

How the results depend on the processing

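The share of genes with a peak was 21.9% against 13.1% of all genes with a window of 500 bp, 27.4% against 19.0% with 2000 bp, and 13.7% against 8.25% among the 1370 strongest peaks. Leaving out a replicate keeps the 1454 to 1624 thresholded peaks that are among the strongest of both other libraries, so counts fall by construction. They ranged from 7 to 14 genes with a peak (7 to 14 at shared promoters), 5 to 9 of the large and 2 to 5 of the small subunit, and 5 to 7 nearest genes. The median rank ranged from 134 to 1185.5, and motif 1 was at 0 to 1 summits. Per library the mean was 15.0 to 17.5 genes, with 10 to 14 in both others. For the other lists the ranges were 1 to 2 tRNA synthetases, 4 to 4 gene expression factors and 7 to 9 respiratory genes. Among the 1370 strongest peaks there were 10 genes, all 10 at shared promoters, with 3 of the small subunit, 5 nearest genes, a median rank of 664.5, motif 1 at 0 summits, 1 tRNA synthetase, 4 gene expression factors and 5 respiratory genes. With 200 bp to either side of the summit the DRE and motif 1 were each found at 2 summits. At the 1370 strongest peaks of each library the mean was 9.0 genes, with 5 in all libraries, and at 5000 it was 24.3 with 15. The other 55 values stayed within 1.5 times the count or within 1 SD of the median. The mean ranks of the 12 strongest peaks moved by no more than their SD when matched within 50 or 200 bp, but that SD is large: within 200 bp mRpL35 moved from 3131.7 to 1457.3 and mRpL11 from 3157 to 1599. Within 50 bp mRpL23, mRpL35, mRpL11 and mRpL47 were matched in only 2 libraries, with 1932 for mRpL35, 960.5 for mRpL11 and 1693.5 for mRpL47.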

Other observations

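mRpL44 and mRpS21 were picked out after their values were seen, as the remaining genes without a thresholded peak that had one among the strongest of a single library. mRpL44, head to head with the chromatin remodelling gene Snr1, had a summit of rank 2033 in replicate 1, none within 1000 bp in replicate 2 and one of rank 19523 in replicate 3. mRpS21, beside Droj2, ranked 10468, 2224 and 4236 in replicates 1 to 3.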
